A study of Mus musculus with 17 samples.

Results

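The genes described are 9 transcription factors of interferon signalling in mouse lung: Stat2, Stat3, Irf1, Irf2, Irf5, Irf7, Irf8, Irf9 and Batf2. They were picked by symbol, not by a measured value, from the 18262 genes of a table of bulk RNA sequencing, and all 9 passed the minimum level that left 10284 genes to test. The table holds 16 lung libraries from C57BL/6 mice in 4 groups of 4, and 1 library of an injected cell product. Mice were naive (no tumor) or carried M3-9-M ffluc-mCherry rhabdomyosarcoma, a syngeneic muscle tumor line with a luciferase and mCherry label, from 500000 cells placed in the gastrocnemius muscle, so the lungs are distant from the primary tumor. Within each kind of mouse, 1 group had no treatment and 1 group received 8000000 IL12-GEMy cells, engineered myeloid cells that secrete interleukin 12, through a vein; in tumor-bearing mice this was on day 12. Whole lungs were taken 3 days later, which was day 15 of tumor growth. The cell product is a single library of bone marrow cells transduced with a lentivirus. Its sample label also names the cytokines SCF, FLT3L and IL-6. The labels do not name a treatment with unengineered cells, nor the age or sex of the mice, and they do not say that each library is a separate mouse, so the tests compare libraries, whose spread may be partly technical. In the descriptions every untreated tumor library carries the number 1 and every treated tumor library the number 2, so whatever that number stands for cannot be told apart from treatment.

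STAT proteins are latent factors that cytokine receptors activate through JAK kinases. Type I and III interferons join STAT2 with another STAT and with IRF9 into a complex called ISGF3, which binds the interferon-stimulated response element (ISRE). Interferon-gamma, which interleukin 12 makes natural killer (NK) and T cells release, acts through STAT dimers on the gamma-activated site (GAS), and Irf1 is among its early targets. IRF1 and BATF2 then carry the response on in macrophages, whereas IRF2 occupies IRF sites and can oppose IRF1. IRF7 amplifies type I interferon genes, IRF5 acts below Toll-like receptors in myeloid cells, IRF8 shapes monocytes and dendritic cells, and STAT3 carries signals of interleukins 6 and 10.

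Promoter sequence was available for 8 of the 9 genes, in 11 windows that run from 250 bases before to 50 bases after an annotated start in RefSeq (build GRCm38.p6). The windows were searched on both strands for a short ISRE form, GAAANNGAAA, and for the GAS form TTCNNNGAA, which reads the same on both strands; N is any base. The ISRE form was in 3.44% of all 32851 windows of this length and the GAS form in 8.30%. Among these genes the ISRE form was found for Stat2, 222 bases before the start, and for Irf2, 241 bases before it. The GAS form was found for Irf1, 90 bases before the start, for Irf2, 224 bases before it, and at 2 places for Irf8, 171 and 153 bases before it. Each position is the first base of the match, and no ISRE match overlaps a GAS match. The 4 windows with a match are shown because their genes span the weakest and some of the strongest changes reported further on; capitals mark the matches, each run is the 250 bases that end just before the start, and all 4 genes lie on the plus strand, so each run reads 5′ to 3′ toward the gene. The places are chr11:53769764-53770013 for Irf1, chr8:46739495-46739744 for Irf2, chr8:120736108-120736357 for Irf8 and chr10:128270248-128270497 for Stat2.
Irf1: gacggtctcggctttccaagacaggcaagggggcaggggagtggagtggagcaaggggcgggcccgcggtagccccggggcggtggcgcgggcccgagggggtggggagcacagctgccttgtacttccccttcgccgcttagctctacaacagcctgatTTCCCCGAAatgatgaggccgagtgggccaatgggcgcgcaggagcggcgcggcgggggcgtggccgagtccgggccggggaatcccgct
Irf2: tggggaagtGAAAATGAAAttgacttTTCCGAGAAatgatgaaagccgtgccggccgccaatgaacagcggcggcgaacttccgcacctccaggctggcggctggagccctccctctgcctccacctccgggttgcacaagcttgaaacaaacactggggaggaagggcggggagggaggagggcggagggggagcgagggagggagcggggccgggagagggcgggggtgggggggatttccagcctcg
Irf8: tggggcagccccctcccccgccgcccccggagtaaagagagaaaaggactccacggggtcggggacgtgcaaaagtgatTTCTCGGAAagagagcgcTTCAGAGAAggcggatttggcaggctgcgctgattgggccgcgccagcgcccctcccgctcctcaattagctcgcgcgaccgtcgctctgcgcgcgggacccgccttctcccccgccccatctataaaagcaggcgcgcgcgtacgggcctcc
Stat2: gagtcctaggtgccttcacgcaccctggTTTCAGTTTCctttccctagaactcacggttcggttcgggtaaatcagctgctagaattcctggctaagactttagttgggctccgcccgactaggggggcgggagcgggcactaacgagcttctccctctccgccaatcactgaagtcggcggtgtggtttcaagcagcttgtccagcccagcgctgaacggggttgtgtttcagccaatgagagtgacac
A match in letters is not a measured binding site. No match was found in the windows of Irf5, Irf7, Irf9 and Stat3, which says only that these letters are not in those windows.

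The lung libraries held 27567100 to 36814796 reads and the product 31111622, as recovered from the smallest step of the values. The values are FPKM in which length is the whole genomic span of a gene, introns included, so levels are compared between genes only after conversion to reads per 1000000 (RPM) per kilobase of exon. Batf2 had the fewest reads of the 9 genes in a lung, about 154, and the other 8 had at least 700 in every lung. Lung identity held in all 16 lungs: the sum of 8 lung epithelium markers was 9094 to 14602 FPKM there and 0.586 FPKM in the product. In the product, 8 neutrophil markers summed to 841 FPKM and 8 monocyte and macrophage markers to 407 FPKM. Replicate 1 of the untreated tumor-bearing group was the lowest of its group for 8 of the 9 genes, and replicate 4 was the highest for 7 of the 9. Calls that changed without replicate 1 are given both ways. That replicate was picked by the values of these same genes. Leaving it out raises the group mean by construction for the 8 genes where it was lowest. Values without it are therefore descriptions and not support for a change.

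All 9 factors were higher in the lungs of untreated tumor-bearing mice than in naive lungs, where 16.9% of tested genes were called higher. All 9 were also higher in naive lungs after IL12-GEMy cells, where 5.60% of tested genes were called higher. In tumor-bearing mice, GEMy treatment was followed by higher Stat2, Irf1, Irf8, Irf9 and Batf2, 5 of the 9, against 3.00% of tested genes; Stat3, Irf2, Irf5 and Irf7 did not pass the test there. Without replicate 1 of the untreated tumor-bearing group, all 9 were still higher with tumor, and with cells in tumor-bearing mice Stat2, Irf1, Irf8 and Batf2 were higher and Irf5 was lower. Calls are from limma on log2(FPKM + 0.5) fitted to all 16 lungs, with an adjusted p under 0.05 after Benjamini-Hochberg adjustment over all tested genes, and fold changes are on that log2 scale unless FPKM is named. The median log2 change of the 9 was 0.90 with tumor, against -0.048 over all tested genes. It was 1.04 with GEMy in naive lungs, against -0.016, and 0.50 with GEMy in tumor-bearing mice, against -0.015. In all comparisons fewer or more cells of a type and less or more RNA per cell cannot be told apart in whole lung.

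**Figure D1:**
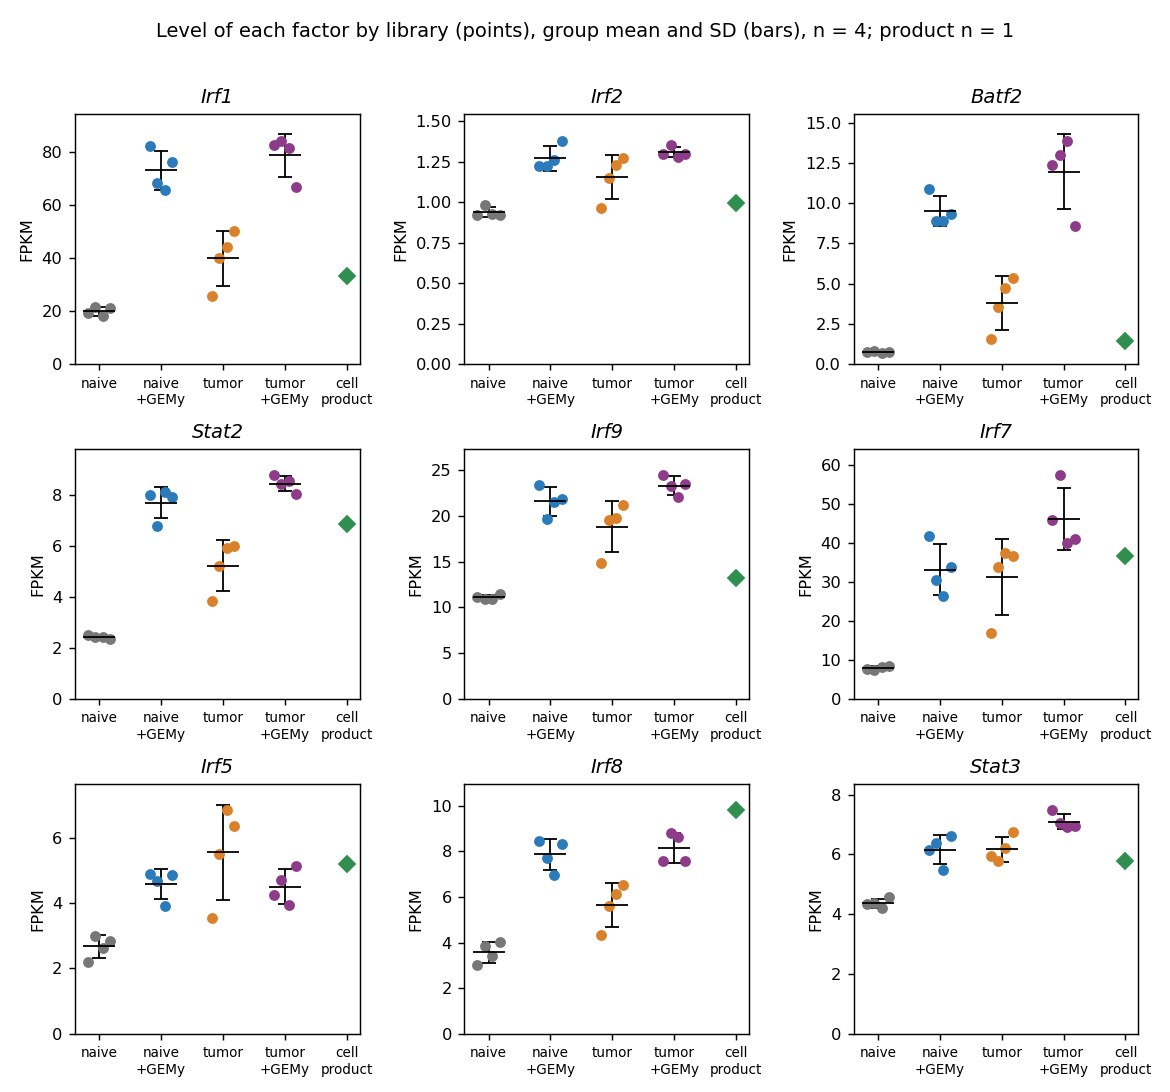
Level of each of the 9 genes in FPKM (linear axis from 0) for each library: circles are the 4 lungs of each group, the bar is the mean with SD, and the diamond is the single cell product library. Batf2 goes from 0.736 FPKM in naive lungs to 12.0 in treated tumor-bearing lungs, Irf2 from 0.937 to 1.31, and Irf5 has its highest group mean, 5.56 FPKM, in untreated tumor-bearing lungs.

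Irf1, the activator that interferon-gamma induces early, lies on chromosome 11 from 53770014 to 53778375 in mm10. Its level was 19.2, 21.3, 17.9 and 21.0 FPKM in the naive lungs and 82.0, 68.3, 65.7 and 76.1 FPKM in naive lungs given GEMy cells. It was 25.7, 39.8, 44.1 and 50.0 FPKM in untreated tumor-bearing lungs and 82.5, 84.2, 81.3 and 66.6 FPKM in treated ones. Both treated groups lay above every untreated lung, and every tumor-bearing lung lay above every naive untreated one. The rise with GEMy in naive lungs was 3.61-fold (log2 1.85, SE 0.15, adjusted p = 5.51e-07), that with tumor 1.93-fold (log2 0.95, SE 0.15, adjusted p = 0.000186) and that with GEMy in tumor-bearing mice 2.01-fold (log2 1.01, SE 0.15, adjusted p = 0.000880). The product had 33.3 FPKM, below all 8 treated lungs and above 5 of the 8 untreated ones. Its promoter is the one shown above with a GAS form near the start.

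Batf2, a basic leucine zipper factor that pairs with IRF1 in activated macrophages, lies on chromosome 19 from 6164439 to 6172476 and had the largest fold changes of the 9 after GEMy treatment. Naive lungs had 0.717, 0.789, 0.674 and 0.766 FPKM, and naive lungs given GEMy cells had 10.9, 8.92, 8.92 and 9.31 FPKM. Untreated tumor-bearing lungs had 1.56, 3.56, 4.75 and 5.32 FPKM, and treated ones had 12.4, 13.0, 13.9 and 8.59 FPKM. No lung of one of these groups lay among those of another except that 1 treated tumor-bearing lung, at 8.59 FPKM, was below the treated naive lungs. The change was 8.08-fold with GEMy in naive lungs (log2 3.02, SE 0.24, adjusted p = 3.79e-07), and only 0.156% of tested genes rose more. It was 3.24-fold with tumor (log2 1.69, SE 0.24, adjusted p = 5.83e-05) and 3.07-fold with GEMy in tumor-bearing mice (log2 1.62, SE 0.24, adjusted p = 0.000693). The added 0.5 understates these folds, since naive lungs were near that level. The product held 1.43 FPKM, less than 12 of the 16 lungs and less than every treated lung.

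Irf2, the antagonist of IRF1 at shared sites, moved the least. It ranged over 0.918 to 0.981 FPKM in naive lungs, 1.22 to 1.38 in naive lungs with GEMy cells, 0.965 to 1.27 in untreated tumor-bearing lungs and 1.28 to 1.35 in treated ones. The untreated tumor-bearing range reached down into the naive one, through replicate 1 at 0.965 FPKM. Its log2 change was 0.20 (SE 0.05, adjusted p = 0.00821) with tumor and 0.30 (SE 0.05, adjusted p = 0.00176) with GEMy in naive lungs. With GEMy in tumor-bearing mice it was 0.13 (95% interval 0.02 to 0.25, adjusted p = 0.174), and 0.08 (adjusted p = 0.329) without that lung. The tumor call was lost when summed hemoglobin was a covariate, with a log2 change of 0.16 and an adjusted p of 0.0521; hemoglobin made up 0.0735 to 4.15% of reads in the lungs. Irf2 lies on chromosome 8 from 46739745 to 46847459, a span of 107714 bases with 2497 exonic ones, which makes its FPKM the lowest of the 9 in treated lungs. Per kilobase of exon it was second to Irf1 in naive lungs, at 40.4 ± 1.28 RPM (SD, n = 4) against 49.7 ± 3.92 for Irf1. Whether reads in introns were counted is not stated, and with such reads this value of Irf2 would be too high.

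The log2 ratio of Irf1 to Irf2 within a library sets the activator against its antagonist, and depth and scaling drop out of it. It was 4.40 ± 0.10 (SD, n = 4) in naive lungs, 5.08 ± 0.24 in untreated tumor-bearing lungs, 5.84 ± 0.16 in treated naive lungs and 5.90 ± 0.15 in treated tumor-bearing lungs. Every pair of groups was without overlap except the 2 treated groups. For each of those 5 pairs the 2-sided exact permutation p was 0.0286, the smallest that 4 against 4 can give, or 0.0343 after adjustment over the 12 ratio tests. The 2 treated groups differed by 0.06 (exact permutation p = 0.571, adjusted 0.623). The ratio of the product was 5.07, at the level of the untreated tumor-bearing lungs.

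Stat2 and Irf9 encode the parts of ISGF3 covered here. Stat2, on chromosome 10 from 128270498 to 128292854, had 2.50, 2.42, 2.41 and 2.35 FPKM in naive lungs and 7.98, 6.79, 8.11 and 7.92 FPKM in naive lungs given GEMy cells. It had 3.82, 5.20, 5.91 and 5.98 FPKM in untreated tumor-bearing lungs and 8.76, 8.44, 8.53 and 8.03 FPKM in treated ones. The 4 naive lungs were the 4 lowest, the untreated tumor-bearing lungs came next, and the treated lungs were above all of them. Stat2 rose 2.80-fold with GEMy in naive lungs (log2 1.49, SE 0.10, adjusted p = 6.66e-08), 1.94-fold with tumor (log2 0.95, SE 0.10, adjusted p = 3.01e-06) and 1.58-fold with GEMy in tumor-bearing mice (log2 0.66, SE 0.10, adjusted p = 0.000833).

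Irf9, the DNA-binding part of ISGF3, lies on chromosome 14 from 55603985 to 55610031 and moved less than Stat2 in each comparison. Its levels were 11.1, 10.9, 10.9 and 11.5 FPKM in naive lungs, 23.4, 19.6, 21.5 and 21.8 FPKM with GEMy cells, 14.8, 19.5, 19.8 and 21.2 FPKM with tumor and 24.4, 23.3, 22.0 and 23.5 FPKM with both. The naive lungs were the lowest, and the untreated tumor-bearing lungs overlapped the treated naive ones but lay below all treated tumor-bearing ones. Its log2 change was 0.92 (SE 0.09, adjusted p = 2.45e-06) with GEMy in naive lungs and 0.72 (SE 0.09, adjusted p = 1.42e-05) with tumor. With GEMy in tumor-bearing mice it was 0.31 (SE 0.09, adjusted p = 0.0439), a call that held in 9 of 19 alternative analyses, with adjusted p from 0.0190 to 0.199; with the replicate number as a block the adjusted p was 0.0544, and without replicate 1 of the untreated tumor-bearing group the change was 0.205 with an adjusted p of 0.0576. Irf9 shares 123 exonic bases with Rnf31 on the same strand, and reads there cannot be assigned to one of them.

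The 2 parts of ISGF3 therefore changed in unequal measure. The log2 ratio of Irf9 to Stat2 was 2.20 ± 0.06 (SD, n = 4) in naive lungs, 1.86 ± 0.10 in untreated tumor-bearing lungs, 1.49 ± 0.07 in treated naive lungs and 1.47 ± 0.07 in treated tumor-bearing lungs. As with Irf1 and Irf2, all pairs of groups except the treated ones were without overlap, with an exact permutation p of 0.0286 (adjusted 0.0343) each. The treated groups differed by -0.02 (exact permutation p = 0.714, adjusted 0.714). The product had the lowest ratio, 0.94, below all 16 lungs.

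**Figure D2:**
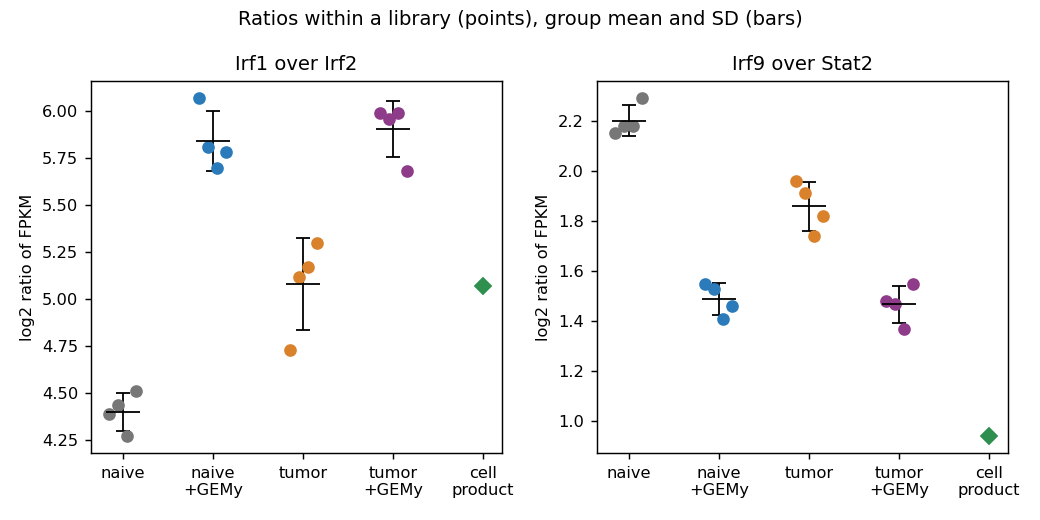
Log2 ratio of FPKM within each library for Irf1 over Irf2 (left) and Irf9 over Stat2 (right); circles are the 4 lungs of each group, bars are the mean with SD, the diamond is the cell product, and the vertical axes do not start at 0. The Irf1 ratio rises from 4.40 in naive lungs to 5.90 in treated tumor-bearing lungs while the Irf9 ratio drops from 2.20 to 1.47, with untreated tumor-bearing lungs between.

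Irf7, the amplifier of type I interferon genes, lies on chromosome 7 from 141263183 to 141266425 and rose with tumor and with cells in naive lungs by similar amounts. Naive lungs had 7.79, 7.36, 8.29 and 8.45 FPKM. Untreated tumor-bearing lungs had 16.8, 33.9, 37.5 and 36.8 FPKM, treated naive lungs 41.9, 30.5, 26.4 and 33.8, and treated tumor-bearing lungs 46.0, 57.4, 40.0 and 41.1. The first untreated tumor-bearing lung stood far under its 3 companions, which overlapped the treated naive lungs. Irf7 rose 3.59-fold with tumor (log2 1.84, SE 0.21, adjusted p = 6.97e-06), where 0.856% of tested genes rose more, and 3.92-fold with GEMy in naive lungs (log2 1.97, SE 0.21, adjusted p = 6.97e-06). With GEMy in tumor-bearing mice the log2 change was 0.61 (95% interval 0.16 to 1.05, adjusted p = 0.103), and without the low lung it was 0.34 (adjusted p = 0.147).

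Irf5, a factor of Toll-like receptor signalling in macrophages, lies on chromosome 6 from 29526625 to 29541870 and was the one gene of the 9 whose highest group was the untreated tumor-bearing one. Its levels were 2.21, 3.00, 2.64 and 2.84 FPKM in naive lungs, 4.88, 4.67, 3.90 and 4.87 with GEMy cells, 3.54, 5.51, 6.84 and 6.35 with tumor and 4.24, 4.71, 3.93 and 5.13 with both. Except for replicate 1 at 3.54 FPKM, the untreated tumor-bearing lungs were above all treated lungs. The log2 change was 0.90 (SE 0.15, adjusted p = 0.000202) with tumor and 0.68 (SE 0.15, adjusted p = 0.00838) with GEMy in naive lungs. With GEMy in tumor-bearing mice it was -0.25 (95% interval -0.56 to 0.07, adjusted p = 0.400). Without replicate 1 of the untreated tumor-bearing group that value was -0.43 and passed the test (adjusted p = 0.0180), so the call of a fall rests on leaving that library out. That library was the lowest of its group for Irf5, so leaving it out could only move the value down. Irf5 shares 251 exonic bases with Tnpo3 on the opposite strand, and whether counting used strand is not stated.

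Irf8, which sets the fate of monocytes and dendritic cells, lies on chromosome 8 from 120736358 to 120756693. It had 3.00, 3.86, 3.41 and 4.01 FPKM in naive lungs, 8.46, 7.73, 6.97 and 8.32 with GEMy cells, 4.34, 5.59, 6.13 and 6.53 with tumor and 7.57, 8.80, 8.63 and 7.60 with both. The groups fell in the order naive, tumor, then both treated groups, which overlapped each other. Its log2 change was 1.04 (SE 0.11, adjusted p = 5.99e-06) with GEMy in naive lungs, 0.59 (SE 0.11, adjusted p = 0.000580) with tumor and 0.50 (SE 0.11, adjusted p = 0.00939) with GEMy in tumor-bearing mice. The last call was lost when only the 2 compared groups were fitted (adjusted p = 0.0600). Irf8 was the one gene of the 9 that was higher in the cell product, at 9.80 FPKM, than in all 16 lungs.

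Stat3, the factor of interleukin 6 and interleukin 10 signals, lies on chromosome 11 from 100886806 to 100939541. It ranged over 4.19 to 4.56 FPKM in naive lungs, 5.48 to 6.62 with GEMy cells, 5.77 to 6.75 with tumor and 6.91 to 7.47 with both. The naive lungs were below all others and the lungs with both were above all others. Its rise was near equal with tumor (log2 0.46, SE 0.06, adjusted p = 3.50e-05) and with GEMy in naive lungs (log2 0.45, SE 0.06, adjusted p = 0.000108), and the difference of these was 0.01 (95% interval -0.12 to 0.13, adjusted p = 0.962). With GEMy in tumor-bearing mice the change was 0.19 (95% interval 0.06 to 0.32, adjusted p = 0.0832); without replicate 4 of the untreated tumor-bearing group it was 0.23 and passed the test (adjusted p = 0.0318). Stat3 shares 72 exonic bases with Stat5a on the opposite strand.

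Groups without overlap were counted apart from the test. All 4 untreated tumor-bearing lungs were above all 4 naive lungs for 8 of the 9 genes, all but Irf2, against 14.1% of tested genes. All 4 treated naive lungs were above all 4 naive lungs for 9 of 9, against 10.1% of tested genes. All 4 treated tumor-bearing lungs were above all 4 untreated ones for 8 of 9, all but Irf5, against 4.70% of tested genes; among these, Stat3, Irf2 and Irf7 did not pass the test.

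The direct comparison of the tumor with the cells, each on its own, separated the genes. Against treated naive lungs, untreated tumor-bearing lungs had lower Stat2 (log2 -0.53, SE 0.10, adjusted p = 0.00146), Irf1 (-0.90, SE 0.15, adjusted p = 0.000738), Irf8 (-0.46, SE 0.11, adjusted p = 0.00768) and Batf2 (-1.32, SE 0.24, adjusted p = 0.00112). These are 4 of the 9, against 14.1% of tested genes called lower; with hemoglobin as a covariate the Irf8 difference was as large, -0.52, but the call was lost (adjusted p = 0.0835). Irf7 differed by -0.13 (95% interval -0.57 to 0.31), Irf9 by -0.20 (-0.39 to -0.01, adjusted p = 0.108), Irf2 by -0.10 (-0.22 to 0.01) and Irf5 by 0.22 (-0.09 to 0.54, adjusted p = 0.281), and none of these passed the test. Without replicate 1 of the untreated tumor-bearing group, Irf5 was higher with tumor than with cells, by 0.41 (adjusted p = 0.0108), Irf7 turned to 0.14 (adjusted p = 0.447) and Irf9 was -0.09 (adjusted p = 0.270). The upward direction of these shifts was fixed by leaving out the lowest lung of the group. With all lungs in, Irf1, Batf2, Stat2 and Irf8 were each higher after the cells than after the tumor, and the other 5 genes were not called either way.

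The lungs with both tumor and cells were above naive lungs for 9 of 9 genes, against 13.6% of tested genes called higher. The largest of these changes were Batf2 at 9.94-fold (log2 3.31, SE 0.24, adjusted p = 7.31e-08), Irf7 at 5.45-fold (log2 2.45, SE 0.21, adjusted p = 3.54e-07) and Irf1 at 3.88-fold (log2 1.96, SE 0.15, adjusted p = 1.53e-07). Between the 2 treated groups, tumor-bearing and naive, 1 of the 9 was called higher, against 4.03% of tested genes. This was Stat3, with a log2 difference of 0.19 (SE 0.06, adjusted p = 0.0481), a call that held in 8 of 19 alternative analyses, with adjusted p from 0.0242 to 0.449. The other 8 differed by -0.02 to 0.48, the latter for Irf7 (95% interval 0.04 to 0.92, adjusted p = 0.137). For Irf1 the difference was 0.11 (95% interval -0.22 to 0.43) and for Irf8 0.05 (-0.18 to 0.28), so a residual tumor difference of up to those bounds is within the data.

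The change with GEMy cells was smaller in tumor-bearing than in naive lungs for 7 of the 9 genes by the test of the difference itself, against 5.22% of tested genes called lower in that test. On the log2 scale the difference was -1.40 (SE 0.34, adjusted p = 0.0221) for Batf2, -1.37 (SE 0.29, adjusted p = 0.0117) for Irf7, -0.93 (SE 0.21, adjusted p = 0.0152) for Irf5 and -0.85 (SE 0.22, adjusted p = 0.0303) for Irf1. It was -0.83 (SE 0.14, adjusted p = 0.00376) for Stat2, -0.61 (SE 0.12, adjusted p = 0.00872) for Irf9 and -0.54 (SE 0.15, adjusted p = 0.0489) for Irf8. Stat3 at -0.26 (adjusted p = 0.0890) and Irf2 at -0.17 (adjusted p = 0.233) did not pass. Without replicate 1 of the untreated tumor-bearing group Irf2 did, at -0.22 (adjusted p = 0.0282), and without replicate 3 of the treated naive group Stat3 did, at -0.31 (adjusted p = 0.0344). The Irf8 call held in 8 of 26 alternative analyses and the Irf1 call in 17 of 26, and without replicate 3 of the untreated tumor-bearing group 4 genes were called in place of 7. This comparison shares its lungs with the ones above and is not independent of them.

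That difference is on a log scale, and it reads otherwise for some genes in FPKM, a description made after the values were seen. Adding the separate increments of tumor and of cells to the naive level gives 12.6 FPKM for Batf2, and the treated tumor-bearing lungs had 12.0, or 95.0% of that sum, a difference of -0.625 with an SE of 1.51 from the group spreads. For Irf5 the sum is 7.47 FPKM and the observed mean was 4.50, or 60.3% of it, a difference of -2.96 with an SE of 0.826. Stat2 reached 80.3% of its sum of 10.5 FPKM (difference -2.07, SE 0.608) and Irf9 79.6% of 29.3 (-5.97, SE 1.66). Irf8 reached 82.0% of 9.95 (-1.79, SE 0.710). Stat3 reached 89.0% of 7.96 (-0.872, SE 0.358) and Irf2 88.0% of 1.49 (-0.178, SE 0.0806). Irf1 at 84.5% of 93.1 (-14.5, SE 7.59) and Irf7 at 81.7% of 56.4 (-10.3, SE 7.10) were less far below in terms of their spread. Irf5 was the farthest below its sum in percent, and Batf2 differed from its sum by less than its SE.

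**Figure D3:**
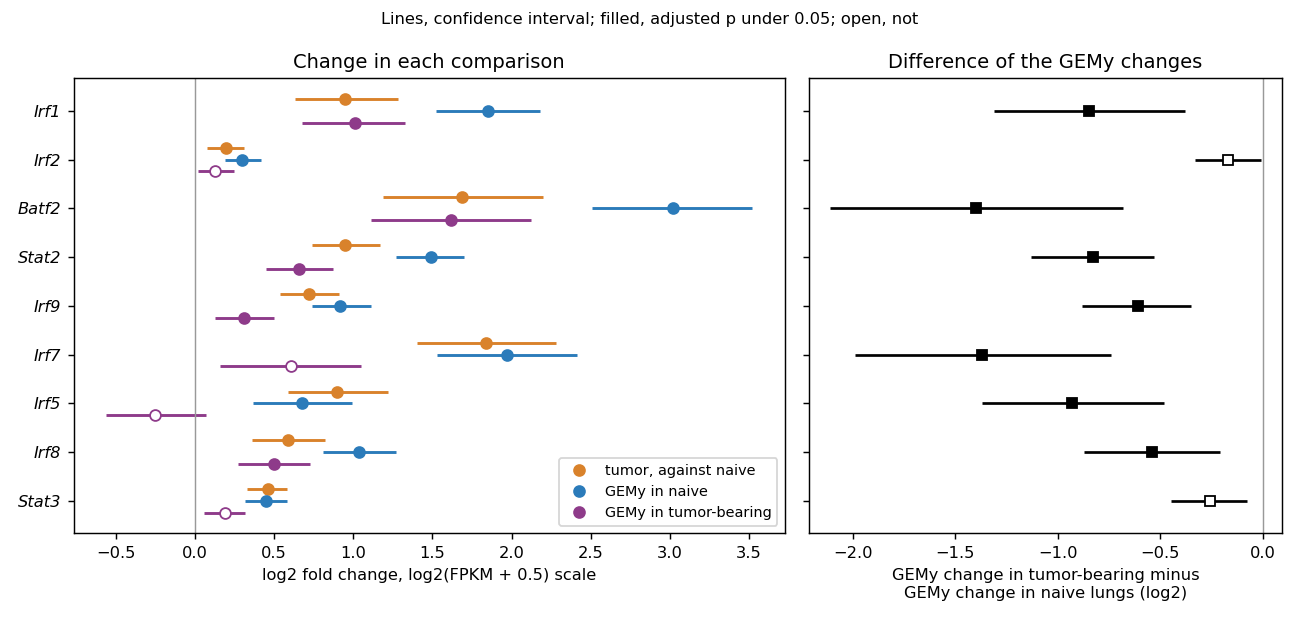
Left, log2 fold change of each gene on the log2(FPKM + 0.5) scale with tumor, with GEMy in naive lungs and with GEMy in tumor-bearing mice; right, the GEMy change in tumor-bearing minus that in naive lungs. Lines are 95% intervals and filled symbols have an adjusted p under 0.05 (limma); Irf5 is the one gene with a value below 0 on the left, -0.25 and not called, and all 9 values on the right are below 0.

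Levels between genes were read per kilobase of exon. If reads in introns were counted, which is not stated, genes with long introns such as Irf2 and Stat3 would rank too high. In naive lungs the order ran from Irf1 (49.7 RPM per exonic kilobase), Irf2 (40.4) and Stat3 (36.9) over Irf9 (21.7), Irf8 (21.2), Irf5 (15.4), Stat2 (12.3) and Irf7 (10.8) down to Batf2 at 4.26 ± 0.297 (SD, n = 4). Irf9 and Irf8 did not differ beyond their spread. In treated tumor-bearing lungs Irf1 was again first at 197 ± 20.3, and Batf2 was second by its mean at 69.1 ± 13.4, ahead of Irf7 at 62.5 ± 10.8 and Stat3 at 60.0 ± 2.23, from which it did not stand apart beyond the spread. Irf5 was last there at 25.9 ± 3.04. In the product Irf1 came first at 83.3, then Irf8 at 58.0, Irf7 at 49.9 and Stat3 at 48.7, and Batf2 was last at 8.25. In the product itself, then, the factor with the largest rise in treated lungs was the lowest of the 9, with 1 library and no test.

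The genes whose course over the 16 lungs was nearest to each factor were found by the root mean square (RMS) difference of log2(FPKM + 0.5) after subtracting the naive mean, over 16 lungs that share libraries and depth. Irf1 was nearest to Psmb8 (RMS 0.105) and Psmb9 (0.116), which encode subunits of the immunoproteasome. Irf8 was nearest to Tapbp (0.0913), which loads peptides on class I molecules, and H2-DMb1 (0.113), which does so for class II. Stat2 was nearest to the class I genes H2-T22 (0.0961) and H2-Q4 (0.117), and Irf9 to the class I gene H2-D1 (0.110) and to Dhx58 (0.122), an RNA sensor of the RIG-I family; class I genes are near copies of each other, so their reads may be split in an uncertain way. Irf7 was nearest to Oasl2 (0.155) and Isg15 (0.220), both classical interferon-stimulated genes. Batf2 was nearest to Il18bp (0.120), a secreted inhibitor of interleukin 18, and Irgm1 (0.179), an interferon-induced GTPase. Irf5 was nearest to the blood cell genes Myo1g (0.0803) and Clec12a (0.104), Stat3 to Ly6e (0.0999) and Apobec3 (0.101), and Irf2 to Pfkp (0.0644). The courses of the 9 factors lay at unequal distances: between Irf1 and Stat2 the RMS difference was 0.277, between Irf8 and Irf9 0.145, and between Batf2 and Irf2 2.17.

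Genes known as targets of these factors were taken from lists chosen with earlier results of these data known. Over all tested genes 16.9% were called higher and 27.2% lower with tumor, 5.60% higher with GEMy in naive lungs, and 3.00% higher and 3.72% lower with GEMy in tumor-bearing mice, and each count that follows is to be read against these. A list gene with a mean under 0.5 FPKM in naive lungs entered the test through the groups where it was higher, so the number of such genes is given. Of 19 tested targets of IRF1 and interferon-gamma, 18 rose with tumor, 18 with GEMy in naive lungs and 15 with GEMy in tumor-bearing mice, with medians of 1.56, 2.83 and 1.05. Leaving aside the 2 under 0.5 FPKM in naive lungs, 16 of 17 rose with tumor and 16 with cells. Cxcl10, a chemokine for activated T cells, had 0.601 ± 0.0594 FPKM in naive lungs (SD, n = 4), 23.5 ± 14.9 with tumor and 17.8 ± 3.70 with GEMy cells; its log2 change was 4.18 (SE 0.39, adjusted p = 1.21e-06) with tumor and 4.04 (SE 0.39, adjusted p = 3.37e-06) with cells. Iigp1, an interferon-induced GTPase, led the rises with GEMy in tumor-bearing mice, from 14.9 ± 7.13 to 57.7 ± 7.19 FPKM (log2 2.04, SE 0.27, adjusted p = 0.000315). By the test of the difference, 14 of the 19 rose less with cells in tumor-bearing than in naive lungs, against 5.22% of tested genes called lower in that test.

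Of 21 tested targets of ISGF3, 21 rose with tumor, 19 with GEMy in naive lungs and 11 with GEMy in tumor-bearing mice, with medians of 0.77, 1.35 and 0.55. Leaving aside the 5 under 0.5 FPKM in naive lungs, 16 of 16 rose with tumor and 14 with cells. By the test of the difference, 8 of the 21 were called lower and 13 were not called. Over all tested genes 5.22% were called lower in that test. Rsad2, an antiviral enzyme, rose most with tumor, from 0.986 ± 0.299 to 9.45 ± 5.71 FPKM (log2 2.62, SE 0.29, adjusted p = 6.25e-06). Isg15, a ubiquitin-like protein, led with GEMy in naive lungs, from 7.83 ± 0.415 to 34.6 ± 7.10 FPKM (log2 2.06, SE 0.24, adjusted p = 1.90e-05). Ifit3, an interferon-stimulated gene, led with GEMy in tumor-bearing mice, from 25.3 ± 6.69 to 67.8 ± 11.7 FPKM (log2 1.43, SE 0.17, adjusted p = 0.000180).

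Targets of STAT3 were called with both tumor and cells. Of 18 tested, 1 of them under 0.5 FPKM in naive lungs, 13 rose with tumor (median 0.93), 6 with GEMy in naive lungs (median 0.26), and with GEMy in tumor-bearing mice 1 rose and 1 fell (median -0.04). Fgl2, a prothrombinase and immune regulator, rose most in the first 2, from 7.74 ± 1.02 FPKM to 29.8 ± 9.54 with tumor (log2 1.83, SE 0.20, adjusted p = 3.76e-06) and 20.8 ± 3.96 with cells (log2 1.36, SE 0.20, adjusted p = 0.000200). Mcl1, a survival factor, was the gene that fell with GEMy in tumor-bearing mice, from 187 ± 28.7 to 133 ± 9.59 FPKM (log2 -0.49, SE 0.09, adjusted p = 0.00365). Of 12 tested myeloid targets of IRF8, 1 of them under 0.5 FPKM in naive lungs, 9 rose with tumor, 4 rose with GEMy in naive lungs, and none rose and 3 fell with GEMy in tumor-bearing mice, where Irf8 itself was higher. Fcgr1, the high-affinity IgG receptor of monocytes and macrophages, rose most with tumor (log2 1.50, SE 0.17, adjusted p = 8.55e-06) and with cells in naive lungs (log2 1.25, SE 0.17, adjusted p = 0.000132). Csf1r, the receptor for macrophage colony-stimulating factor, fell most with cells in tumor-bearing mice, from 14.3 ± 3.33 to 9.38 ± 1.96 FPKM (log2 -0.58, SE 0.15, adjusted p = 0.0276). By the test of the difference, 4 of the 18 STAT3 targets and 5 of the 12 IRF8 targets were called lower. Over all tested genes that share was 5.22%.

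**Figure D4:**
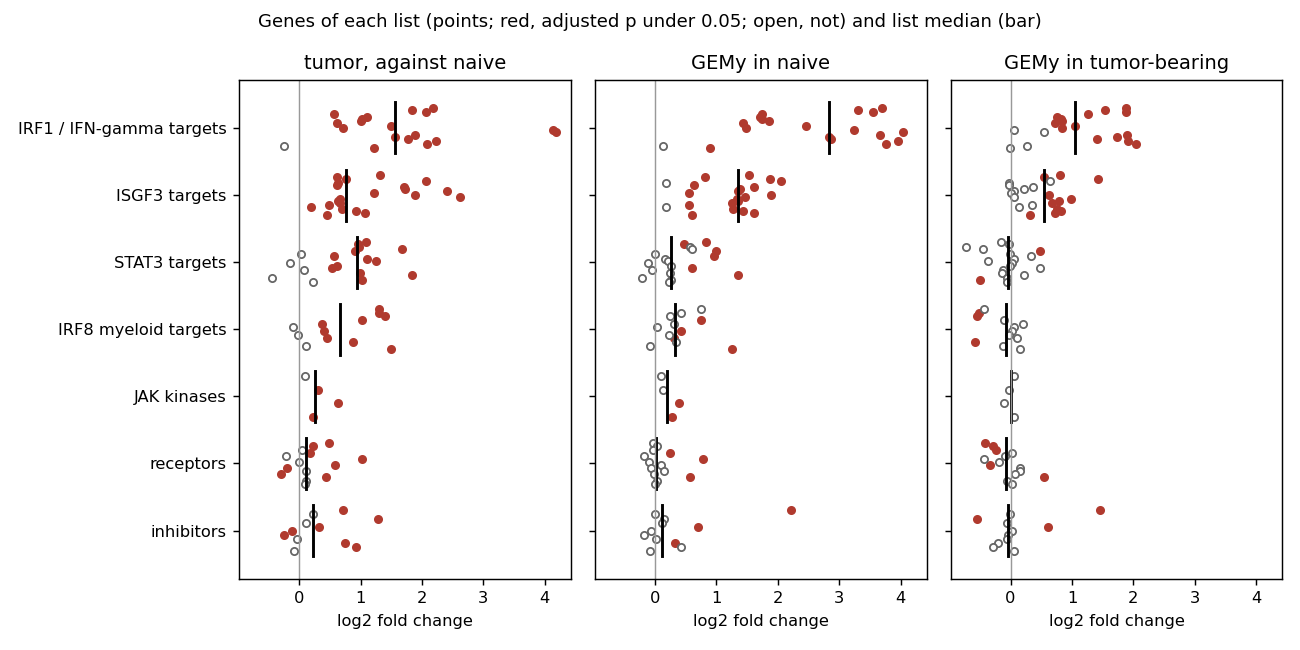
Log2 fold change of each tested gene (point; red, adjusted p under 0.05 by limma; open, not) in 7 lists of targets and signalling parts, with the list median as a bar, for tumor, GEMy in naive lungs and GEMy in tumor-bearing mice. The median of the IRF1 and interferon-gamma targets is the farthest to the right of 0 in all 3 panels, at 1.56, 2.83 and 1.05, and the STAT3 targets go from 0.93 with tumor to -0.04 in the last panel.

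Upstream of the factors, 10 of 17 ligands fixed for the list were in the table and 4 passed the minimum level. Ifng, Il10, Osm and Lif each passed it only through groups where they were high, so they are given as values with no test. Ifng, the gene of interferon-gamma, was at 0.0290 to 0.0562 FPKM in naive lungs, 0.551 to 0.901 with GEMy cells, 0.224 to 1.18 with tumor and 1.34 to 2.30 with both, and the product had 0.371 FPKM of it. Il10, the gene of interleukin 10, was at 0.00686 to 0.0133 FPKM in naive lungs, 0.198 to 0.388 with GEMy cells, 0.0506 to 0.0920 with tumor and 0.601 ± 0.120 (SD, n = 4) with both. Osm, a cytokine that activates STAT3, was at 0.262 to 0.426 FPKM in naive lungs, 0.463 to 0.613 with GEMy cells, 1.68 to 4.45 with tumor and 1.13 to 2.26 with both. Ifng and Il10 were highest in the lungs with both, and Osm in those with tumor, where it overlapped the lungs with both. Lif, another cytokine that activates STAT3, was at 0.473 to 0.655 FPKM in naive lungs and 0.459 to 0.609 with GEMy cells. It was at 0.226 to 0.475 FPKM with tumor and 0.318 to 0.441 with both. Of 14 tested receptors, 6 rose and 2 fell with tumor, 3 rose with GEMy in naive lungs, and 1 rose and 4 fell with GEMy in tumor-bearing mice; the 2 that fell with tumor are a smaller share than over all tested genes. Il10ra, the interleukin 10 receptor chain, led with tumor (log2 1.03, SE 0.15, adjusted p = 7.20e-05) and with cells in naive lungs (log2 0.78, SE 0.15, adjusted p = 0.00301). Il12rb1, a chain of the interleukin 12 receptor, passed the minimum mostly through the lungs with both, at 0.575 to 0.779 FPKM against 0.0828 to 0.144 in naive lungs, 0.306 to 0.544 with cells and 0.221 to 0.386 with tumor. It is counted among those that rose, and its test is not support for a rise. Of 4 JAK kinases 3 rose with tumor and 2 with cells in naive lungs, led in both by Jak3, the kinase of the common gamma chain, at log2 0.63 (SE 0.08, adjusted p = 1.69e-05) and 0.39 (SE 0.08, adjusted p = 0.00492), and none was called with cells in tumor-bearing mice.

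Of 11 tested feedback inhibitors, 5 rose and 2 fell with tumor, 3 rose with GEMy in naive lungs, and 2 rose and 1 fell with GEMy in tumor-bearing mice. Socs3, which restrains STAT3 signals, had 15.0 to 18.5 FPKM in naive lungs, 17.4 to 20.0 with GEMy cells, 34.3 to 46.6 with tumor and 23.4 to 32.0 with both. It rose with tumor (log2 1.29, SE 0.11, adjusted p = 3.57e-07), was not called with cells in naive lungs (0.15, adjusted p = 0.469) and fell with cells in tumor-bearing mice (-0.54, SE 0.11, adjusted p = 0.00565). Socs1, which restrains interferon-gamma signals, had 1.01 to 1.71 FPKM in naive lungs, 7.59 to 9.47 with GEMy cells, 1.48 to 3.92 with tumor and 3.86 to 11.2 with both. It rose with tumor (log2 0.72, SE 0.28, adjusted p = 0.0473), with cells in naive lungs (2.22, SE 0.28, adjusted p = 5.67e-05) and with cells in tumor-bearing mice (1.45, SE 0.28, adjusted p = 0.00458).

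Of 18 tested sensors and kinases that act before IRF factors, 12 rose and 1 fell with tumor, 9 rose with GEMy in naive lungs, and 3 rose and 1 fell with GEMy in tumor-bearing mice. Leaving aside the 3 under 0.5 FPKM in naive lungs, 9 of 15 rose with tumor and 8 with cells in naive lungs. Zbp1, a nucleic acid sensor, led all 3, from 0.830 ± 0.0627 FPKM in naive lungs to 7.33 ± 3.01 with tumor (log2 2.45, SE 0.23, adjusted p = 9.33e-07), 10.9 ± 1.58 with cells (3.08, SE 0.23, adjusted p = 1.76e-07) and 15.2 ± 1.27 with both (1.11 above tumor alone, SE 0.23, adjusted p = 0.00642). Among 6 other genes of the IRF family and its binding proteins none rose in any of the 3 comparisons. In a list of BATF, JUN and FOS partners, Batf and Batf3 did not pass the minimum level, so the tested genes are JUN and FOS genes. Of these 6, 4 rose with tumor, none was called with cells in naive lungs and 2 fell with cells in tumor-bearing mice. Fosl2, a FOS family partner, rose with tumor from 4.46 ± 0.610 to 10.4 ± 0.844 FPKM (log2 1.14, SE 0.08, adjusted p = 8.29e-08). Junb, a JUN family partner, fell with cells in tumor-bearing mice from 59.6 ± 6.16 to 37.9 ± 7.98 FPKM (log2 -0.67, SE 0.15, adjusted p = 0.0133).

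Markers of other cells moved with these results. A marker under 0.5 FPKM in naive lungs entered the test through the groups where it was higher. The number of such markers is not given here, so the counts of rises below are descriptions and not support for a rise. The sum of 8 neutrophil markers was 50.8 to 98.4 FPKM in all naive lungs, treated or not, 1267 to 2297 with tumor and 682 to 2012 with tumor and cells. With tumor 8 of 8 rose, and none was called with cells in naive lungs. With cells in tumor-bearing mice 2 of the 8 fell, against 3.72% of tested genes. The sum of the 8 monocyte and macrophage markers was 43.4 to 55.7 FPKM in naive lungs, 88.6 to 116 with cells, 84.8 to 162 with tumor and 108 to 139 with both. Of 7 tested, 7 rose with tumor and 6 with cells in naive lungs, while none rose and 1 fell with cells in tumor-bearing mice. Csf1r and Fcgr1 of this list are also in the list of IRF8 targets above, and Csf1r is the marker that fell. The sum of 7 NK cell markers was 4.86 to 7.40 FPKM in naive lungs, 22.9 to 35.1 with cells, 15.0 to 41.8 with tumor and 28.0 to 41.2 with both, with 6 of 6 tested rising with tumor and 5 with cells in naive lungs. B cell markers summed to 45.5 to 80.1 FPKM in naive lungs and 25.5 to 43.6 with tumor, and 4 of 5 tested fell. Alveolar macrophage markers summed to 135 to 175 FPKM in naive lungs and 129 to 208 over the other groups, and none of 5 tested was called with tumor or with cells in naive lungs. T cell markers summed to 5.46 to 8.19 FPKM in naive lungs, 6.83 to 9.09 with cells, 7.24 to 15.0 with tumor and 10.8 to 13.8 with both, and 4 of 6 rose with tumor. Lung epithelium markers summed to 13369 to 14602 FPKM in naive lungs, 11384 to 14172 with cells, 9094 to 11819 with tumor and 10404 to 12075 with both, and 7 of 8 fell with tumor. With tumor 4 of 6 fibroblast and smooth muscle markers and 3 of 6 endothelium markers also fell. Plasmacytoid dendritic cell markers summed to 40.4 to 43.6 FPKM in naive lungs and 67.6 to 83.2 with cells. They summed to 42.7 to 52.0 with tumor and 63.8 to 80.8 with both. Of 3 tested, 1 rose with cells in naive lungs, and 1 rose and 1 fell with tumor. That list holds Bst2, which is also in the ISGF3 list and went from 20.7 ± 1.23 to 53.8 ± 7.59 FPKM with cells in naive lungs. Conventional dendritic cell markers summed to 5.04 to 6.23 FPKM in naive lungs and 4.30 to 5.66 with cells. Their sum was 5.16 to 6.09 with tumor and 4.48 to 6.72 with both. Of 3 tested, 1 rose and 1 fell with tumor, and 1 rose and 1 fell with cells in naive lungs. In each dendritic list 1 rose with cells in tumor-bearing mice. No marker of these lists was at 0 in all lungs. Their part in the level of any of the 9 factors was not tested.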

How the data were processed

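Per the submitters' processing notes, reads were handled with STAR 2.7.3a and Partek on mm10; annotation, strand and settings are not given in the sources used here. The FPKM values were deposited by the authors for 18262 genes in 17 libraries. FPKM times genomic span (introns included) summed to 1000000 per library in units of 1000 bases, and at the recovered depth the share of values below 1000 reads that came out whole (tolerance 0.02) was 86.7 to 88.5%, so no count test was run. Lung values were fitted as log2(FPKM + 0.5) with limma 3.58.1 (R 4.3.3; group means, trend and robust moderation, 2-sided) over the 10284 genes that reached 0.5 FPKM in 4 or more lungs, with Benjamini-Hochberg adjustment per comparison at 0.05, in 6 pairs of groups and their interaction; the fit was tested on simulated data. Exon lengths are from GENCODE M21. The members, marker lists and target lists were chosen with earlier results of these data known. The rule for names was all 9 members, the 2 nearest genes to each, and the largest called gene per list in 3 comparisons; some genes this rule picked are not reported here. Numbered replicates were tried as a block, beside other pseudocounts, minimums, scalings, moderation, a hemoglobin covariate, the compared groups alone and leaving out each lung.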

Additional observations from a re-analysis of the deposited data

Results flagged for a closer look

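Of the 44 sets of 4 lungs checked for a single value far from the other 3, chance alone would give about 1 in 20. Stat2 was 6.79 FPKM in replicate 2 of the treated naive lungs, against 7.92 to 8.11 in the other 3. Irf1 was 66.6 FPKM in replicate 4 of the treated tumor-bearing lungs, against 81.3 to 84.2, and the same library had an Irf1 to Irf2 log2 ratio of 5.68, against 5.96 to 5.99. Irf2 was 0.981 FPKM in replicate 2 of the naive lungs, against 0.918 to 0.929.

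The change with GEMy cells differed between tumor-bearing and naive lungs, by the limma test of the difference, for 7 genes: Stat2 by -0.83 (adjusted p = 0.00376), Irf1 by -0.85 (0.0303), Irf5 by -0.93 (0.0152), Irf7 by -1.37 (0.0117), Irf8 by -0.54 (0.0489), Irf9 by -0.61 (0.00872) and Batf2 by -1.40 (0.0221), in log2 units.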

How the results depend on the processing

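Of 1260 values of the 9 genes under 27 alternative settings, 1189 kept their direction and their side of the threshold, 52 lost the call, 5 gained one and 14 changed sign; the cause was not tested. The sign changes were all of values that were not called. Treated tumor-bearing minus treated naive lungs gave, with hemoglobin as a covariate, -0.061 for Irf1, -0.020 for Irf2 and -0.002 for Irf8, and for Irf5 0.041 with median-of-ratios scaling and 0.023 with quantile normalization; leaving out 1 lung gave -0.090 to 0.034 for Irf5 and -0.005 to 0.082 for Irf8. Untreated tumor-bearing minus treated naive lungs gave -0.080 for Stat3 with the hemoglobin covariate, and leaving out 1 lung gave -0.045 to 0.039 for Stat3 and -0.237 to 0.140 for Irf7, the last without replicate 1 of the tumor group.

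Counts of the 9 genes moved as follows. With cells in tumor-bearing mice, 3 were called higher when only the compared groups were fitted, and leaving out 1 lung gave 0 to 1 called lower, the 1 being Irf5. Between the treated groups, 0 were called higher on the RPM scale, with the hemoglobin covariate, with no minimum and with the compared groups alone, and 0 to 1 on leaving out 1 lung. Untreated tumor-bearing minus treated naive lungs had 0 to 1 called higher, and the interaction 4 to 8 called lower, on leaving out 1 lung. The Batf2 interaction lost its call without replicate 3 of the untreated tumor-bearing group (adjusted p = 0.0514).

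Same-numbered replicates correlated at -0.313 to 0.594 in their deviations from group means. Correlations that involved naive untreated lungs ran from -0.313 to 0.328, and those between the other groups from 0.0296 to 0.594. With means of 4 libraries these values cannot decide whether the numbers pair the lungs. With the replicate block the Irf9 change with cells in tumor-bearing mice had an adjusted p of 0.0544 and no other call of a member changed. Blocked sign-flip tests of the ratios cannot go below 0.125 with 4 pairs and gave that p for each of the differences called without the block, which were unchanged in size: 0.68, 1.44, 0.82, 1.50 and -0.76 for Irf1 over Irf2, and -0.34, -0.71, -0.39, -0.73 and 0.37 for Irf9 over Stat2. Ratios with a lung left out were computed as values with no test.

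Over all tested genes, scaling shifted the median log2 change by less than 0.1 but moved the balance of calls. Genes called higher and lower were 1733 and 2797 with tumor, and 2191 and 2059 with median-of-ratios scaling. They were 1403 and 2635 with both against naive, and 1811 and 1605 with that scaling. Between the treated groups they were 414 and 943, against 553 and 414 with that scaling and 527 and 658 with quantile normalization. For tumor against cells they were 885 and 1450, and 1134 and 928 with median-of-ratios scaling. With cells in naive lungs they were 576 and 154, and 487 and 290 with quantile normalization, and for the interaction 107 and 537, and 223 and 406. With the hemoglobin covariate 105 genes were higher between the treated groups and 174 lower for tumor against cells. With the compared groups alone 124 were higher with cells in tumor-bearing mice and 804 lower for tumor against cells. Leaving out 1 lung gave 837 to 1936 lower for tumor against cells, 331 to 918 lower for the interaction and 270 to 389 higher between the treated groups.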
